A study of Mus musculus with 12 samples.

Results

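The 5 Rel family genes of the mouse (Nfkb1, Nfkb2, Rel, Rela and Relb) and the 3 genes of the IκB kinase (IKK) complex (Chuk, Ikbkb and Ikbkg) were followed in 12 RNA-seq libraries of bone marrow neutrophils. These 8 genes were chosen by name from the known make-up of the pathway, with earlier results of these data known. They were taken out of 15986 genes with summed transcript counts, and all 8 passed the filter on low counts that left 10802 genes for testing. The cells were mature neutrophils isolated with Ly6G beads from animals of strain label C57BL/6. They were incubated for 6 h at 37C. The groups were Rab27aKO neutrophils with 5 µM CpG-B (ODN 1826), Rab27aKO neutrophils without it, wild-type neutrophils with 5 µM CpG-B, and wild-type neutrophils without it, with 3 libraries in each. Cells without CpG are called unstimulated here, since the labels name them both vehicle and untreated. CpG-B is a synthetic DNA that activates the endosomal receptor TLR9, and Rab27a is a small GTPase that docks secretory granules at the plasma membrane. The sources used here do not give the Rab27a allele, nor the sex, age or number of the animals. The p-values therefore reflect variation among these libraries, which may be technical.

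NF-κB is a family of transcription factors that work as pairs of Rel subunits. Rela, Rel and Relb carry a domain that activates transcription, while the products of Nfkb1 and Nfkb2 are made as long precursors that are trimmed to a DNA-binding subunit. In resting cells IκB proteins keep the pairs in the cytoplasm. In the canonical route, which Toll-like receptors use through MyD88, the IKK complex of the kinases Ikbkb (IKKβ) and Chuk (IKKα) with the scaffold Ikbkg (NEMO) marks IκB for destruction and frees mainly Rela and Rel pairs. In the alternative route Chuk triggers the trimming of the Nfkb2 precursor, the usual partner of Relb. Several Rel and IκB genes are themselves known NF-κB targets, and in neutrophils the pathway is known for driving cytokine production and delaying cell death.

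The RNA of the alternative-route pair, Relb and Nfkb2, rose most with CpG. In knockout and in wild-type neutrophils, the 5 Rel genes passed the test upward with CpG and none of the 3 IKK genes did. Between genotypes, Relb was lower in unstimulated knockout neutrophils and Nfkb2 was higher in knockout neutrophils with CpG. The calls of both these smaller differences were lost when single libraries were left out, and that of Relb was also lost when only curated transcripts were counted.

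Library totals ran from 10928813 to 15513279 estimated counts. Rab27a itself stood at 114, 113 and 96.1 CPM (counts scaled to library size) in knockout libraries 1, 2 and 3 with CpG, and at 129, 116 and 94.9 CPM in unstimulated knockout libraries. It stood at 207, 216 and 285 CPM in wild-type libraries with CpG, and at 231, 251 and 335 CPM in unstimulated ones. Every knockout library was below every wild-type library, yet reads of the gene remained in all of them. The neutrophil genes S100a8, S100a9, Ly6g and Csf3r were detected in each library. S100a8 and S100a9 were lowest in knockout library 2 with CpG, at 5378 and 21478 CPM. All other libraries had 10301 to 15609 CPM of S100a8 and 31596 to 45432 CPM of S100a9. Knockout libraries numbered 1 and 3 stood apart from the others of their groups, with a residual spread over all genes of 0.412 to 0.434 on the log2 scale, against 0.224 to 0.292 in wild-type libraries. Summed erythroid marker levels (7 of 7 genes in the table, none at 0) ran from 438 to 6054 CPM in knockout libraries and from 3952 to 5201 CPM in wild-type ones. Results resting on these libraries are given with and without them where they change.

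Promoter sequence could be matched to 5 of the 8 genes, which are Nfkb2, Rel, Rela, Chuk and Ikbkg. The windows below, from RefSeq on build GRCm38.p6, run from 250 bases before a transcript start to 50 bases after it and are written 5′ to 3′ on the gene's own strand. They are shown because the genes they belong to differ in their response to CpG. Capitals mark matches to the κB consensus, the DNA motif bound by Rel pairs, searched on both strands, with overlapping matches merged into 1 stretch. The start of the most abundant Nfkb2 transcript lies in the first Nfkb2 window and that of a minor transcript in the second.
Nfkb2 chr19:46304487-46304786 (+): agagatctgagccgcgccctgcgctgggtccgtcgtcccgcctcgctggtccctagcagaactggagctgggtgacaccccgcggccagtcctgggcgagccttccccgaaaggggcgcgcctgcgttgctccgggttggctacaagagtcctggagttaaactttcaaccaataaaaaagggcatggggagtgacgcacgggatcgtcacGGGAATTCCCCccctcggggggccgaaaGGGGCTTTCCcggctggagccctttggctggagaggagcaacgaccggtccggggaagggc
Nfkb2 chr19:46305445-46305744 (+): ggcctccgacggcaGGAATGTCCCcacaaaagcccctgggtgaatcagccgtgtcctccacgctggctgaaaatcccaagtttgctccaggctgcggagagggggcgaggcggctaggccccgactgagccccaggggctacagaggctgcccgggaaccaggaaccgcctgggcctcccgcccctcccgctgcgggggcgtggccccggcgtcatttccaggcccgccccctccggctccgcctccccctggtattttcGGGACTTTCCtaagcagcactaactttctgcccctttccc
Rel chr11:23770920-23771219 (-): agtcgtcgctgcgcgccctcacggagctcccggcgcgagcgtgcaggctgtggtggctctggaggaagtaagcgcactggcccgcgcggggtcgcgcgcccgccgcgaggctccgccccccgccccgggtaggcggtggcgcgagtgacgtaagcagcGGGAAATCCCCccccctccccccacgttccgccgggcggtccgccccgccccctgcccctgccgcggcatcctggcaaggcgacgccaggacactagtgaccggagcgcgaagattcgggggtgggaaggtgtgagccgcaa
Rela chr19:5637291-5637590 (+): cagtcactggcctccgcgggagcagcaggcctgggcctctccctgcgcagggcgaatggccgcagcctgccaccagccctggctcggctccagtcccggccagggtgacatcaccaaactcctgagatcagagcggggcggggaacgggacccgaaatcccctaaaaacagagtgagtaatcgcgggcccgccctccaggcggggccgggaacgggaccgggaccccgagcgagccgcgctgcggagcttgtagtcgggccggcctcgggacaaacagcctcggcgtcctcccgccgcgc
Chuk chr19:44107428-44107727 (-): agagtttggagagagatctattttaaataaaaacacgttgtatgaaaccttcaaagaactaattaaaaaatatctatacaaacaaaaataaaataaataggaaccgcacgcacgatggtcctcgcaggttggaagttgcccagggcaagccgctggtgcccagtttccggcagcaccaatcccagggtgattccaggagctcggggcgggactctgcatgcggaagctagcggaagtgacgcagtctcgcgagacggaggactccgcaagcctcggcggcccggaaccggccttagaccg

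The first Nfkb2 window held 2 κB stretches, with first bases 39 and 11 bases before the start. The second Nfkb2 window also held 2, of which 1 began 236 bases before its start and the other 10 bases after it. Rel had 1 stretch, 92 bases before its start. Rela, Chuk and the 4 windows of Ikbkg had no match to the consensus in these letters. Across 32841 promoter windows of the same length, 4.51% held a match, whereas a looser form spelled GGGNNNNNCC was found in 50.8% of them and also in the Rela and Chuk windows and in 2 of the 4 Ikbkg windows. A further Nfkb2 window, chr19:46305680-46305979, overlaps the second, also holds the start of the minor transcript and has 1 κB stretch, which is the one 10 bases after the start of the second. The Nfkb2 and Rel windows with a match were 64.7 to 75% G and C, against a median of 52.7% over those 32841 windows. The Rela window, which has no match, was 71.3%. The 32841 windows leave out 1 chromosome, and the share of 4.51% was not matched for this content. How rare a match is in such windows was therefore not tested. A match describes the sequence and does not show that a factor binds there.

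In wild-type neutrophils, CpG was followed by higher RNA of all 5 Rel genes. A gene was called when its Benjamini-Hochberg adjusted p, taken over all genes tested with the quasi-likelihood method of edgeR, did not exceed 0.05. Against a background of 6.04% of tested genes called in either direction, with 4.74% higher and 1.3% lower, 5 of the 8 genes were called, all higher. In knockout neutrophils the same comparison also called 5 of the 8, all higher, beside 11.6% of all genes in either direction, 7.57% higher and 4.06% lower. The median log2 fold change of the 8 genes was 0.69 in knockout and 0.56 in wild-type neutrophils, while over all tested genes it was -0.01 in each.

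**Figure D1:**
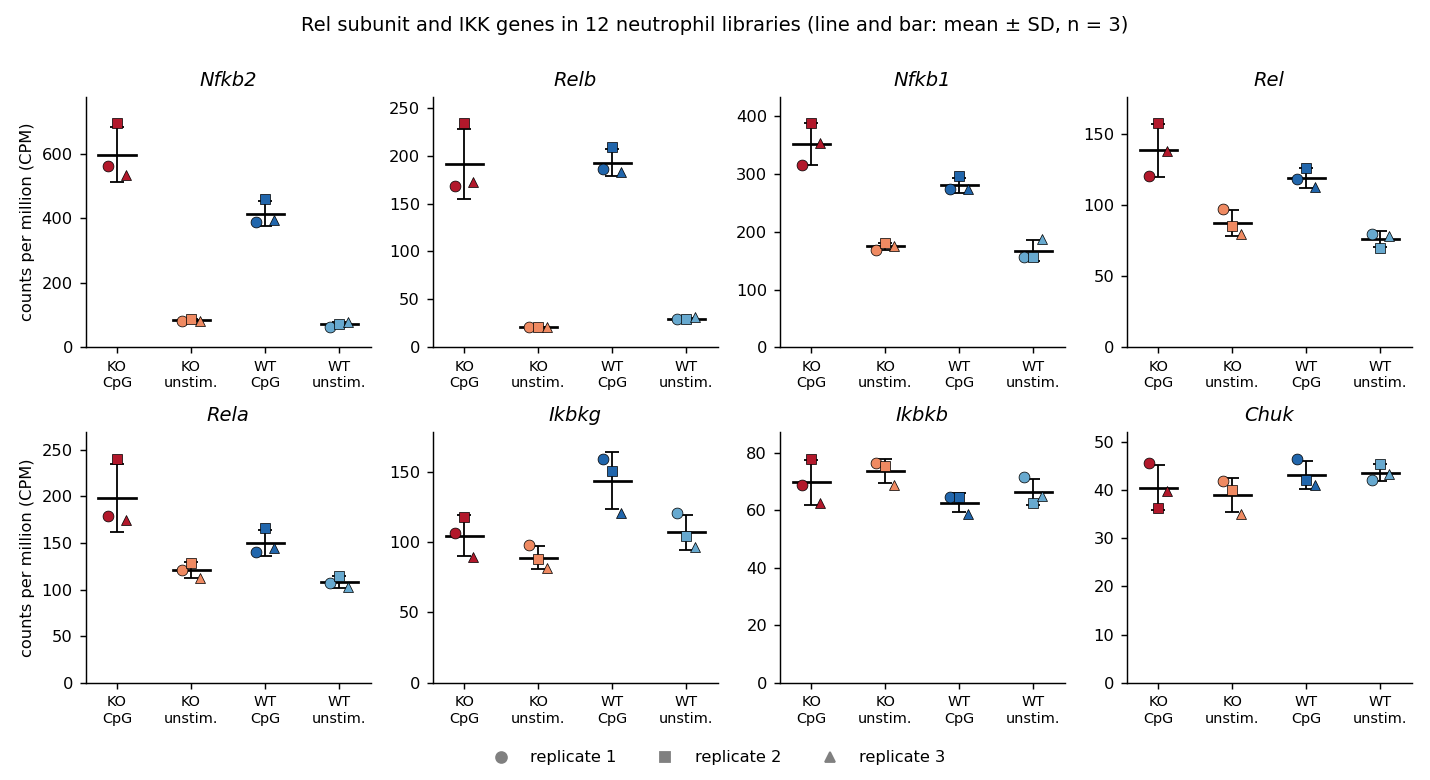
CPM of the 8 genes in each library (points, shaped by replicate number), with the mean and SD of each group of 3 as line and bar. Nfkb2 and Relb in the CpG groups stood far above the unstimulated groups in both genotypes, while Ikbkb and Chuk overlapped between them.

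Relb, the partner of the trimmed Nfkb2 product, stood at 169, 234 and 172 CPM in knockout libraries with CpG, against 20.9, 21.1 and 20.9 CPM in unstimulated knockout libraries. In wild-type libraries it stood at 186, 209 and 183 CPM with CpG, against 29.3, 29.1 and 31.3 CPM unstimulated. The lowest library with CpG exceeded the highest unstimulated one in each genotype, and knockout library 2 was above the other knockout libraries with CpG. The fold was 9.14 in knockout neutrophils (log2 3.19, standard error (SE) 0.14, adjusted p = 3.71e-09) and 6.45 in wild-type neutrophils (log2 2.69, SE 0.13, adjusted p = 2.88e-08).

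Nfkb2, the precursor gene of the alternative route, reached 563, 695 and 535 CPM in knockout libraries with CpG, against 83.1, 88.5 and 81.4 CPM unstimulated. Wild-type libraries had 390, 459 and 395 CPM with CpG, against 64.0, 72.6 and 77.4 CPM unstimulated. Again the groups were well apart, and library 2 was the highest with CpG in either genotype. CpG raised the gene 7.09-fold in knockout neutrophils (log2 2.82, SE 0.13, adjusted p = 7.31e-09) and 5.81-fold in wild-type neutrophils (log2 2.54, SE 0.13, adjusted p = 3.02e-08).

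Nfkb1, the precursor gene of the canonical route, changed less. It stood at 315, 387 and 354 CPM in knockout libraries with CpG, against 169, 180 and 175 CPM unstimulated, and the ranges did not overlap. The wild-type values were 273, 296 and 273 CPM with CpG, against 157, 157 and 188 CPM unstimulated, again without overlap. The fold was 2.02 in knockout neutrophils (log2 1.01, SE 0.11, adjusted p = 2.86e-05) and 1.68 in wild-type neutrophils (log2 0.75, SE 0.11, adjusted p = 0.000654).

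Rel, which encodes the c-Rel subunit, had 120, 157 and 138 CPM in knockout libraries with CpG, against 97.3, 85.3 and 79.6 CPM unstimulated. In wild-type libraries the levels were 118, 126 and 112 CPM with CpG, against 79.8, 69.8 and 78.1 CPM unstimulated. The groups stayed apart in both genotypes, with the narrowest gap between knockout library 1 with CpG and unstimulated knockout library 1. The fold was 1.58 in knockout neutrophils (log2 0.66, SE 0.12, adjusted p = 0.00204) and 1.57 in wild-type neutrophils (log2 0.65, SE 0.12, adjusted p = 0.00404).

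Rela encodes the main activating subunit of canonical pairs. Its level was 179, 240 and 175 CPM in knockout libraries with CpG, against 121, 129 and 112 CPM unstimulated. Wild-type libraries had 140, 166 and 145 CPM with CpG, against 107, 115 and 103 CPM unstimulated. Both pairs of groups were apart, and knockout library 2 with CpG was the highest of all 12. The fold was 1.64 in knockout neutrophils (log2 0.72, SE 0.13, adjusted p = 0.00207) and 1.39 in wild-type neutrophils (log2 0.47, SE 0.13, adjusted p = 0.0465). The wild-type call lay close to the threshold and depended on single libraries. It was lost without unstimulated wild-type library 1 (adjusted p = 0.147), 2 (adjusted p = 0.0838) or 3 (adjusted p = 0.163), without wild-type CpG library 1 (adjusted p = 0.0755), 2 (adjusted p = 0.212) or 3 (adjusted p = 0.0854), and without unstimulated knockout library 1 (adjusted p = 0.0662) or 2 (adjusted p = 0.0706). It was also lost when only curated transcripts were counted (log2 0.32, adjusted p = 0.304). Of 24 settings, the reported fit included, 12 kept the call. With genotype and number together as a block, edgeR gave a log2 change of 0.47 with adjusted p = 0.00162.

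Among the IKK genes, Ikbkg was the only one whose wild-type groups did not overlap. The NEMO scaffold gene had 107, 118 and 89.5 CPM in knockout libraries with CpG, against 97.6, 87.8 and 81.5 CPM unstimulated, which overlap. Wild-type libraries had 159, 151 and 121 CPM with CpG, against 121, 104 and 96.3 CPM unstimulated, and here the lowest library with CpG and the highest unstimulated one nearly met. The log2 fold change was 0.24 in knockout neutrophils (95% interval -0.06 to 0.53, adjusted p = 0.364) and 0.42 in wild-type neutrophils (95% interval 0.13 to 0.72, adjusted p = 0.103), neither past the threshold. In wild-type neutrophils, where same-numbered libraries deviated together, replicate number as a block gave a log2 change of 0.42 with adjusted p = 0.0212, and genotype and number together as a block gave 0.42 with adjusted p = 0.00396. The block by number alone also treats same-numbered libraries of both genotypes as matched, which the labels do not state. Leaving out wild-type CpG library 3 also brought the wild-type comparison past the threshold (log2 0.52, adjusted p = 0.0465). Over 24 settings, the reported fit included, the wild-type log2 change ran from 0.28 to 0.52 (adjusted p from 0.00396 to 0.358). It passed in 3 of them. The Ikbkg gene overlaps G6pdx (339 to 432 CPM by group) and Fam3a (8.57 to 10.7 CPM by group) in the annotation, and the strandedness of the libraries is not stated, so reads may be divided between these genes uncertainly.

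Ikbkb and Chuk, the catalytic kinases, showed no detectable change with CpG. Ikbkb had 68.7, 78.0 and 62.6 CPM in knockout libraries with CpG, against 76.7, 75.4 and 68.9 CPM unstimulated. In wild-type libraries it had 64.7, 64.8 and 58.8 CPM with CpG, against 71.6, 62.7 and 65.2 CPM unstimulated. The values overlapped in both genotypes. Its log2 fold change was -0.08 in knockout neutrophils (adjusted p = 0.761) and -0.08 in wild-type neutrophils (95% interval -0.31 to 0.15, adjusted p = 0.833). Chuk had 45.5, 36.2 and 39.7 CPM in knockout libraries with CpG, against 41.8, 40.0 and 34.9 CPM unstimulated. Its wild-type levels were 46.5, 42.0 and 40.9 CPM with CpG, against 42.1, 45.4 and 43.3 CPM unstimulated. Here too the groups overlapped, with log2 fold changes of 0.06 in knockout neutrophils (adjusted p = 0.848) and -0.02 in wild-type neutrophils (95% interval -0.26 to 0.22, adjusted p = 0.975). The intervals leave room for changes of modest size in either direction.

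**Figure D2:**
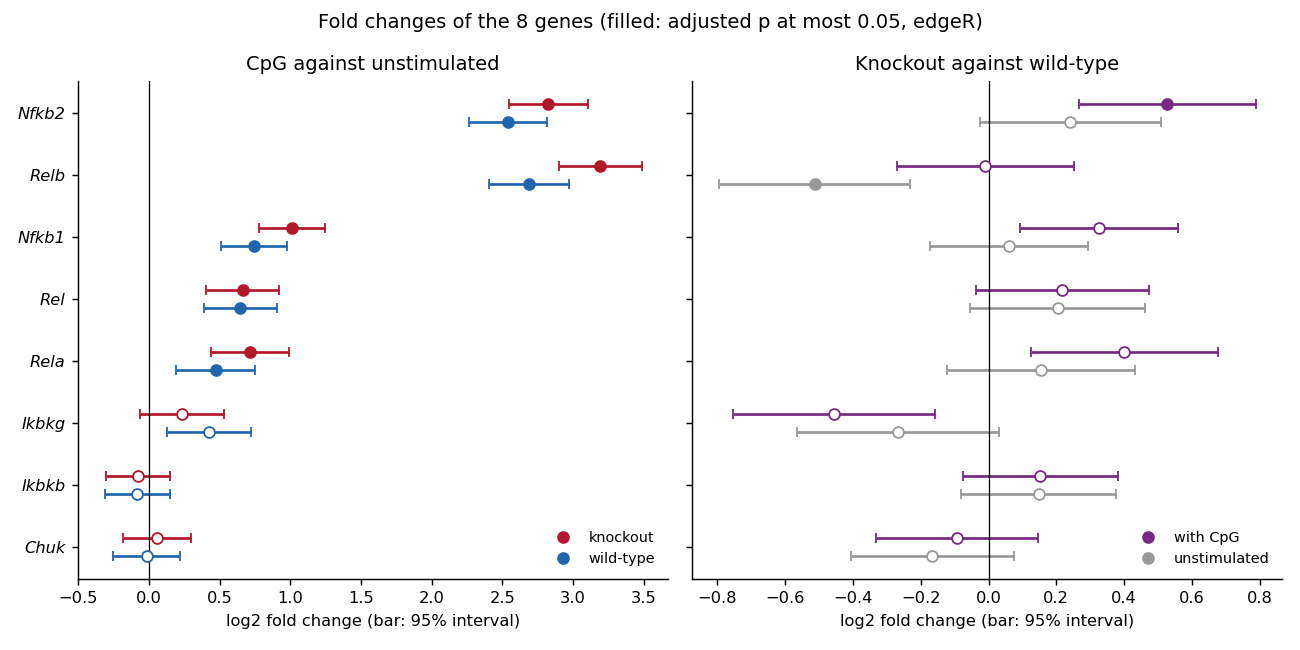
Log2 fold changes of the 8 genes from edgeR with their 95% intervals, CpG against unstimulated on the left (knockout above wild-type) and knockout against wild-type on the right (with CpG above unstimulated). Filled points passed an adjusted p of 0.05. All 5 Rel genes passed for CpG in both genotypes, while only Nfkb2 with CpG and Relb unstimulated passed between genotypes.

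The ranges of the CpG and unstimulated groups did not overlap for 5 of the 8 genes in knockout neutrophils, beside 24.2% of all tested genes. In wild-type neutrophils this held for 6 of the 8, beside 25.7% of all tested genes. The CpG calls of Nfkb1, Nfkb2, Rel and Relb in both genotypes and that of Rela in knockout neutrophils were kept under all 24 settings, the reported fit and the fits without single libraries included. Their range of log2 change over these settings was 3.02 to 3.41 in knockout and 2.61 to 3.13 in wild-type neutrophils for Relb, and 2.70 to 2.89 in knockout and 2.44 to 2.58 in wild-type neutrophils for Nfkb2.

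The summed level of the monocyte and macrophage markers (10 of 10 genes in the table, none at 0) was higher with CpG in both genotypes. It was 1353 to 1792 CPM in knockout libraries with CpG, against 694 to 761 CPM unstimulated. In wild-type libraries it was 1337 to 1377 CPM with CpG, against 889 to 899 CPM unstimulated. Of these 10 genes, 3 rose in knockout neutrophils (Csf1r, Adgre1 and Ms4a7) and 2 in wild-type neutrophils (Csf1r and Adgre1), beside 7.57% and 4.74% of all tested genes higher. Others in the list gave negative values that did not pass, such as Ccr2 (log2 -0.74 in knockout and -1.19 in wild-type neutrophils, adjusted p = 0.266 and 0.105) and F13a1 (log2 -0.85 in knockout and -0.69 in wild-type neutrophils, adjusted p = 0.527 and 0.735). In knockout neutrophils the dendritic cell markers Bst2 (log2 2.13, adjusted p = 0.00693) and Zbtb46 (log2 2.38, adjusted p = 0.0156) also rose, 2 of 7 tested, and the eosinophil marker Siglecf fell (log2 -0.89, adjusted p = 0.00283), 1 of 5 tested, while none of these passed in wild-type neutrophils. The called markers are named after their values were seen. The part of these marker differences in the Rel gene results was not tested, and in bulk RNA fewer cells of a type and less RNA per cell cannot be told apart. Summed levels of the 12 mature neutrophil markers, none at 0, were 62229 to 99724 CPM in knockout libraries with CpG, against 75837 to 88900 CPM unstimulated, and 81208 to 93964 CPM in wild-type libraries with CpG, against 89153 to 91151 CPM unstimulated. Of these 12, Mxd1 alone passed, higher with CpG in knockout (log2 0.79, adjusted p = 0.00129) and in wild-type neutrophils (log2 0.60, adjusted p = 0.0141).

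Levels were compared between the genes in TPM, the deposited unit that is scaled for transcript length as well as library size. In knockout neutrophils with CpG the order was Nfkb2 (268 ± 39.1 TPM, SD, n = 3), Relb (124 ± 27.6), Nfkb1 (117 ± 17.3) and Rela (106 ± 21.6), then Ikbkb (26.7 ± 3.00), Rel (24.5 ± 4.11), Ikbkg (18.6 ± 1.77) and Chuk (15.8 ± 1.43). The ranges of Relb, Nfkb1 and Rela overlapped from one neighbour to the next, as did those of Ikbkb, Rel and Ikbkg. In unstimulated knockout neutrophils Rela led (69.9 ± 1.64 TPM), followed by Nfkb1 (63.0 ± 3.60), Nfkb2 (40.9 ± 1.19) and Ikbkb (30.1 ± 1.02), then Ikbkg (17.6 ± 1.16), Rel (16.9 ± 1.45), Chuk (16.5 ± 0.84) and Relb (14.6 ± 0.64). Neighbours in that order were apart except Ikbkg with Rel and Rel with Chuk. With curated transcripts only, Ikbkg was last of the 8 at 10.3 TPM with CpG and 11.2 TPM unstimulated, just below Chuk (12.2 TPM) with CpG and Relb (11.6 TPM) unstimulated.

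In wild-type neutrophils with CpG, Nfkb2 (189 ± 25.3 TPM) and Relb (121 ± 14.3) also led, each apart from the next gene. Nfkb1 (93.8 ± 8.76) and Rela (81.0 ± 10.2) overlapped, and Ikbkg (26.0 ± 4.67), Ikbkb (23.8 ± 2.48), Rel (21.4 ± 2.38) and Chuk (17.1 ± 1.88) overlapped from one to the next. Without stimulation the wild-type order was Rela (58.1 ± 5.38 TPM), Nfkb1 (55.5 ± 3.73), Nfkb2 (32.0 ± 2.65) and Ikbkb (25.1 ± 2.19), followed by Ikbkg (19.2 ± 2.54), Relb (18.7 ± 0.54), Chuk (17.2 ± 1.19) and Rel (13.5 ± 0.79). Only Rela with Nfkb1, Ikbkg with Relb and Relb with Chuk overlapped among these neighbours. With curated transcripts only, Ikbkg was last of the 8 here too, at 12.5 TPM with CpG and 10.1 TPM unstimulated, and Relb unstimulated stood at 10.8 TPM, below Rel. Relative to the 10802 tested genes, Relb in TPM lay above 91.5% of them in knockout neutrophils with CpG and above 56.4% unstimulated, against 91.7% and 63.1% in wild-type neutrophils.

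**Figure D3:**
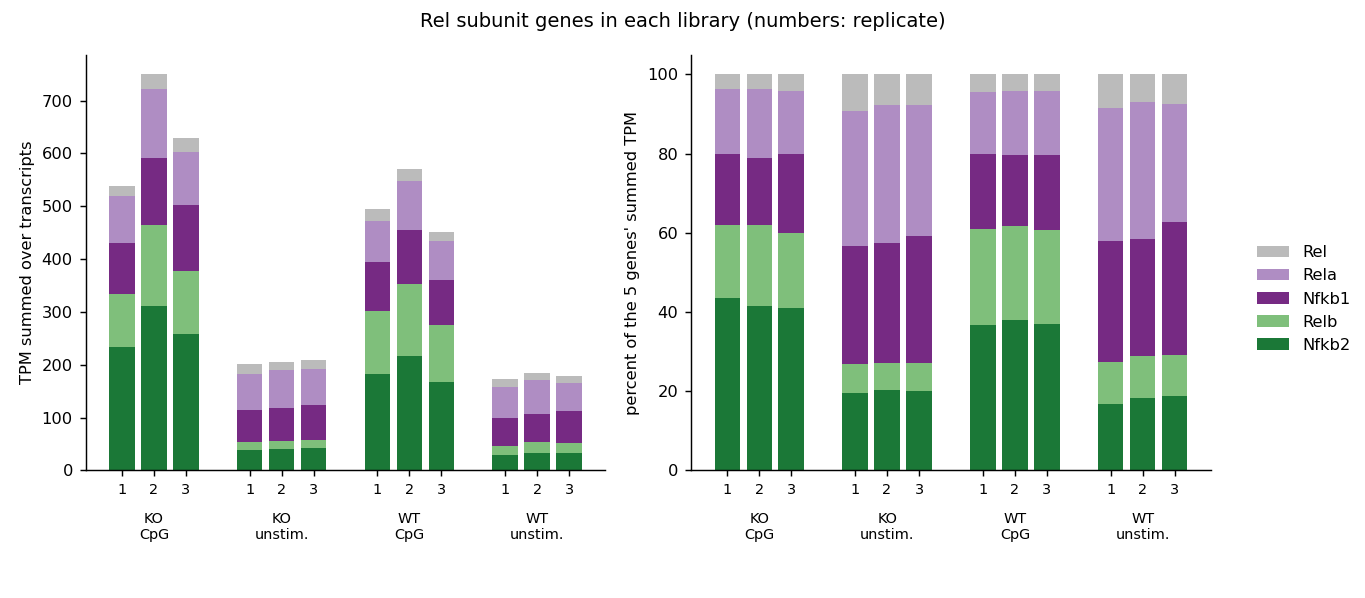
Summed TPM of the 5 Rel genes in each of the 12 libraries (left) and the percent of that sum held by each gene (right), with replicate numbers under the bars. Nfkb2 and Relb together held a larger part in every library with CpG than in any unstimulated library, and the sums were larger with CpG.

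The sum over the 5 Rel genes was 639 ± 106 TPM in knockout neutrophils with CpG and 205 ± 4.03 TPM unstimulated, and 506 ± 60.5 TPM in wild-type neutrophils with CpG and 178 ± 5.71 TPM unstimulated (SD, n = 3 each). The IKK genes summed to 61.0 ± 3.31 TPM in knockout neutrophils with CpG and 64.2 ± 2.93 TPM unstimulated, and to 66.9 ± 8.84 TPM in wild-type neutrophils with CpG and 61.5 ± 4.90 TPM unstimulated. Thus the Rel sum moved far beyond the spread between libraries while the IKK sum stayed within it. Nfkb2 made up 42.0 ± 1.28% of the Rel sum in knockout neutrophils with CpG and 19.9 ± 0.27% unstimulated. In wild-type neutrophils its share was 37.2 ± 0.57% with CpG and 18.0 ± 1.01% unstimulated. Rela, in contrast, held 16.5 ± 0.74% with CpG and 34.0 ± 1.01% unstimulated in knockout neutrophils, and 16.0 ± 0.33% with CpG and 32.6 ± 2.59% unstimulated in wild-type neutrophils. Since shares sum to a whole, this fall sits beside a rise of Rela in CPM.

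The ratio of Relb to Rela TPM was 1.13, 1.19 and 1.19 in knockout libraries with CpG, against 0.209, 0.195 and 0.221 unstimulated. In wild-type libraries it was 1.55, 1.47 and 1.47 with CpG, against 0.315, 0.303 and 0.354 unstimulated. Relb RNA was thus the less abundant of the pair in every unstimulated library and the more abundant in every library with CpG. The ratio of Nfkb2 to Nfkb1 TPM showed the same turn, at 2.42, 2.44 and 2.06 in knockout libraries with CpG, against 0.661, 0.667 and 0.624 unstimulated. Its wild-type values were 1.95, 2.11 and 1.96 with CpG, against 0.549, 0.626 and 0.557 unstimulated. Ikbkg over Ikbkb was 0.728, 0.684 and 0.676 in knockout libraries with CpG, against 1.18, 1.09 and 0.987 in wild-type libraries with CpG, without overlap. Unstimulated values were 0.608, 0.575 and 0.576 in knockout libraries, against 0.787, 0.796 and 0.710 in wild-type libraries, also without overlap. These ratios include predicted transcripts. In unstimulated cells, curated Ikbkg transcripts stood at 12.37, 11.65 and 9.44 TPM in knockout libraries. Wild-type libraries had 9.99, 10.26 and 10.13 TPM, which overlap. With CpG, the curated values were 9.27, 11.27 and 10.22 TPM in knockout libraries. Wild-type libraries had 12.5, 12.64 and 12.37 TPM, which are apart.

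Between genotypes in unstimulated cells, 1 of the 8 genes was called, lower in knockout, where 4.75% of all tested genes were called in either direction, 2.64% lower and 2.11% higher. This gene was Relb, at 20.9, 21.1 and 20.9 CPM in unstimulated knockout libraries, against 29.3, 29.1 and 31.3 CPM in unstimulated wild-type libraries. The libraries of each genotype lay close together and the groups were apart, with a level 1.43-fold lower in knockout neutrophils (log2 -0.51, SE 0.13, adjusted p = 0.0389). The call was lost without unstimulated wild-type library 1 (adjusted p = 0.112), 2 (adjusted p = 0.0858) or 3 (adjusted p = 0.141), without wild-type CpG library 1 (adjusted p = 0.0742) or 3 (adjusted p = 0.0518), and without unstimulated knockout library 1 (adjusted p = 0.125), 2 (adjusted p = 0.133) or 3 (adjusted p = 0.105). It was also lost without both knockout libraries numbered 1 (log2 -0.49, adjusted p = 0.113) and without both numbered 3 (log2 -0.50, adjusted p = 0.0698). Over the 12 fits without single libraries, the log2 difference itself ran from -0.52 to -0.47. The other 7 genes had log2 differences from -0.27 (Ikbkg, adjusted p = 0.353) to 0.24 (Nfkb2, adjusted p = 0.347). Ranges were apart for 3 of the 8 genes, beside 25% of all tested genes.

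The Relb difference lay in transcript models that RefSeq predicts by computation. Of the 8 Relb transcripts in the files, 2 are curated and 6 are predicted. Curated transcripts summed to 12.3, 10.96 and 11.56 TPM in unstimulated knockout libraries, against 11.1, 11.9 and 9.43 TPM in unstimulated wild-type libraries, which overlap. Predicted transcripts summed to 2.11, 3.05 and 3.70 TPM in unstimulated knockout libraries, against 7.13, 7.33 and 9.28 TPM in unstimulated wild-type libraries, which are apart. With CpG the predicted transcripts stood at 6.23, 8.91 and 12.01 TPM in knockout libraries, against 19.2, 30.1 and 26.4 TPM in wild-type libraries, again apart. Curated transcripts with CpG stood at 93.9, 145 and 107 TPM in knockout libraries, against 100, 106 and 81.4 TPM in wild-type libraries, and overlapped. With counts summed over curated transcripts only, the difference in unstimulated cells was 0.02 on the log2 scale (adjusted p = 0.983), the reverse in sign of the value from all transcripts, and with CpG it was 0.29 (adjusted p = 0.324). How the estimate divides reads among overlapping models was not tested.

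**Figure D4:**
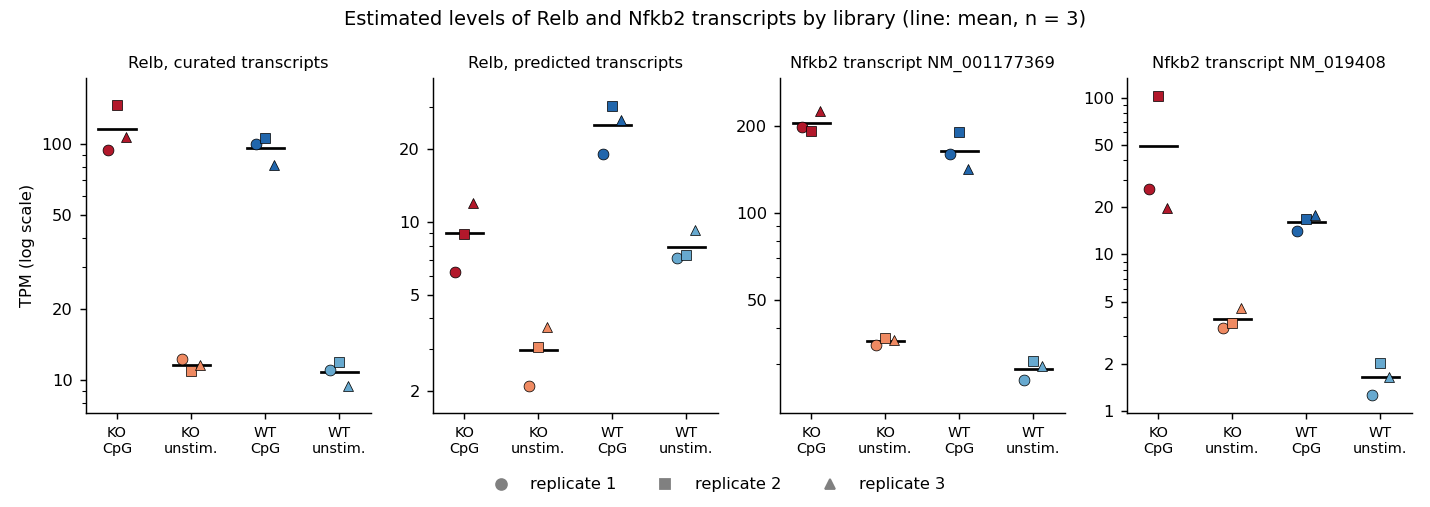
TPM of the curated and of the predicted Relb transcripts and of a major and a minor Nfkb2 transcript in each library (points, log axis), with the group means as lines. The predicted Relb transcripts were lower in knockout than in wild-type libraries with and without CpG, the curated ones overlapped, and knockout CpG library 2 stood apart for NM_019408.

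With CpG, 1 of the 8 genes differed between genotypes, higher in knockout, where 3.92% of all tested genes were called in either direction, 1.70% higher and 2.21% lower. It was Nfkb2, at 563, 695 and 535 CPM in knockout libraries with CpG, against 390, 459 and 395 CPM in wild-type libraries with CpG. All knockout libraries exceeded all wild-type ones, by 1.44-fold on average (log2 0.53, SE 0.12, adjusted p = 0.0259). The call was lost without wild-type CpG library 1 (log2 0.47, adjusted p = 0.160) or 3 (log2 0.51, adjusted p = 0.0782), without knockout CpG library 2 (log2 0.43, adjusted p = 0.0703), and when only the libraries compared were fitted (log2 0.52, adjusted p = 0.136). Nfkb2 is overlapped in the annotation by Psd, at 0.08 to 0.24 CPM by group, and by a long noncoding RNA gene not analysed here. Nfkb1 is also overlapped by a long noncoding RNA gene not analysed here.

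The remaining Rel genes with CpG gave log2 differences between knockout and wild-type of 0.40 for Rela (SE 0.13, adjusted p = 0.111), 0.33 for Nfkb1 (SE 0.11, adjusted p = 0.122), 0.22 for Rel (SE 0.12, adjusted p = 0.358) and -0.01 for Relb (95% interval -0.27 to 0.25, adjusted p = 0.980). None passed the threshold. For Rela and Nfkb1 every knockout library with CpG was above every wild-type one. DESeq2 called both (adjusted p = 0.0366 for Rela and 0.0348 for Nfkb1), and Rela was also called by edgeR without knockout CpG library 3 (log2 0.50, adjusted p = 0.0402) and without both knockout libraries numbered 3 (log2 0.50, adjusted p = 0.0445). Ikbkg went the other way, at 107, 118 and 89.5 CPM in knockout libraries with CpG, against 159, 151 and 121 CPM in wild-type libraries with CpG. Its groups were apart, with a log2 difference of -0.46 (SE 0.14, adjusted p = 0.0947). Scaling by library size alone brought it past the threshold (log2 -0.53, adjusted p = 0.0351). Over 23 settings, the reported fit included, the difference ran from -0.55 to -0.24 (adjusted p from 0.0200 to 0.377). It passed in 2 of them. Ikbkb (log2 0.15, adjusted p = 0.483) and Chuk (log2 -0.09, adjusted p = 0.723) overlapped between genotypes. Ranges were apart for 4 of the 8 genes, beside 20.4% of all tested genes.

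Of the T and NK cell markers, 6 of 7 genes were in the table and 2 were tested. Cd3d, a T cell receptor subunit, was higher in knockout with CpG (log2 4.77, adjusted p = 5.86e-07) and unstimulated (log2 4.91, adjusted p = 3.74e-07), while Nkg7 did not pass with CpG (log2 -0.54, adjusted p = 0.673) or unstimulated (log2 0.67, adjusted p = 0.589). The summed level of the 6 genes was 76.7 to 156 CPM over the 6 knockout libraries. It was 4.57 to 7.93 CPM over the 6 wild-type libraries. Klrb1c was at 0 in unstimulated knockout libraries. Cd3d was the only gene of this list called, and its part in the sum was not tested. The sum therefore does not describe the list as a whole. B cell markers (7 of 8 genes in the table, none at 0) summed to 6.52 to 102 CPM in knockout libraries and to 26.3 to 42.9 CPM in wild-type libraries. No B cell marker passed in either comparison. Of the 7 erythroid markers 1 passed, Hbb-bt, lower in knockout with CpG (log2 -6.95, adjusted p = 1.12e-05) and unstimulated (log2 -7.56, adjusted p = 7.17e-06). Of the 10 monocyte and macrophage markers 1 passed with CpG, Csf1r, higher in knockout (log2 0.63, adjusted p = 0.00986), and none passed unstimulated. These marker genes are named after their values were seen, and 3.92% of all tested genes were called with CpG and 4.75% unstimulated. The part of these marker differences in the Relb and Nfkb2 results was not tested.

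Whether CpG acted differently in the 2 genotypes was tested by the interaction. None of the 8 genes and none of the 10802 tested genes passed (0% called by edgeR). An unadjusted p under 0.05 was found for 365 genes (3.38%), no larger a share than that cutoff passes where no gene differs. DESeq2 called 3 genes. With genotype and number together as a block, which also pairs the knockout libraries, edgeR called 13. Relb had the largest interaction of the 8, with a CpG effect 0.50 larger in knockout than in wild-type neutrophils on the log2 scale (SE 0.18, unadjusted p = 0.0140, adjusted p = 1.00). With curated transcripts only this was 0.28. Those of the other 7 genes lay between -0.19 (Ikbkg) and 0.29 (Nfkb2). The CpG comparisons and the genotype comparisons share libraries, so their values for a gene are not independent of each other.

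Transcript estimates gave further detail on the other genes. Nfkb2 came mostly from NM_001177369, which held 77.8 ± 13.8% of the gene's TPM in knockout neutrophils with CpG and 88.3 ± 0.74% unstimulated, and 87.0 ± 1.54% in wild-type neutrophils with CpG and 90.4 ± 1.48% unstimulated. The minor NM_019408, whose start lies in the second promoter window, stood at 26.3, 102 and 19.8 TPM in knockout libraries with CpG, against 3.37, 3.65 and 4.53 TPM unstimulated. In wild-type libraries it stood at 14.1, 16.8 and 17.8 TPM with CpG, against 1.26, 2.04 and 1.66 TPM unstimulated. It was thus higher with CpG in every library of both genotypes and higher in every knockout than in any wild-type library of the same treatment, with knockout CpG library 2 far above the rest. These transcript levels were not tested.

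Rela came mostly from NM_009045, at 88.3, 115 and 97.0 TPM in knockout libraries with CpG, against 68.5, 71.8 and 69.0 TPM unstimulated. Its wild-type levels were 70.8, 92.6 and 58.4 TPM with CpG, against 57.8, 63.6 and 52.9 TPM unstimulated, and these overlapped. The predicted model XM_006531694 was listed at 0 in all 6 unstimulated libraries. With CpG it stood at 0, 13.8 and 3.02 TPM in knockout libraries and at 6.27, 0 and 14.9 TPM in wild-type libraries, so replicates disagreed on its presence. Nfkb1 rested on NM_008689 (95.4 ± 0.56% of its TPM in knockout neutrophils with CpG and 95.01 ± 0.52% unstimulated) and Rel had 1 transcript. Ikbkg was spread over 14 transcripts, of which 6 are curated, and the curated ones held 55.3 ± 3.45% of its TPM in knockout neutrophils with CpG and 63.2 ± 7.38% unstimulated, and 49.1 ± 9.27% in wild-type neutrophils with CpG and 53.3 ± 7.45% unstimulated.

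Of 54 other genes of the pathway in 7 lists, chosen with earlier results of these data known, all were tested. With CpG, 24 rose and none fell in knockout neutrophils, with a median log2 change of 0.34, where 7.57% of all tested genes rose and 4.06% fell. In wild-type neutrophils 20 rose and none fell, with a median of 0.20, where 4.74% of all tested genes rose and 1.3% fell. The counts by list below stand beside these same shares. The IκB genes, whose products hold or modulate Rel pairs, rose in 6 of 6 cases in each genotype. Nfkbie (IκBε) changed most of them, at 139 ± 22.5 CPM with CpG and 12.6 ± 1.72 CPM unstimulated in knockout neutrophils (log2 3.46, SE 0.20, adjusted p = 7.89e-08). Its wild-type levels were 81.6 ± 22.8 CPM with CpG and 11.2 ± 0.65 CPM unstimulated (log2 2.86, SE 0.20, adjusted p = 8.06e-07). Nfkbid, a nuclear IκB-like gene, changed least, with a log2 change of 0.64 in knockout neutrophils (SE 0.14, adjusted p = 0.00760) and 0.57 in wild-type neutrophils (SE 0.14, adjusted p = 0.0278).

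Among the IKK-related kinases and adaptors, Ikbke changed most. Ikbke, which encodes IKKε, stood at 221 ± 50.9 CPM with CpG and 4.73 ± 1.16 CPM unstimulated in knockout neutrophils (log2 5.54, SE 0.24, adjusted p = 3.71e-09), and at 149 ± 6.26 CPM with CpG and 6.95 ± 1.72 CPM unstimulated in wild-type neutrophils (log2 4.42, SE 0.22, adjusted p = 3.02e-08). In this list 3 of 5 genes rose in knockout neutrophils (Ikbke, Tank and Tbk1), the smallest being Tbk1 (log2 0.36, SE 0.10, adjusted p = 0.0365), and 2 of 5 in wild-type neutrophils (Ikbke and Tank), the smallest being Tank (log2 0.88, SE 0.12, adjusted p = 0.000289), beside 7.57% and 4.74% of all tested genes. Tbk1 in wild-type neutrophils (log2 0.33, adjusted p = 0.0954) and Azi2 and Tbkbp1 in both genotypes did not pass. Tbk1 encodes a kinase related to IKKε and Tank an adaptor that binds both.

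Upstream, 4 of 11 genes of TLR9 signalling rose in each genotype (Irak2, Irak3, Myd88 and Tlr9), beside 7.57% of all tested genes in knockout and 4.74% in wild-type neutrophils. Irak3, which encodes a kinase-like brake on the receptor complex, changed most, with a log2 change of 2.26 in knockout (SE 0.15, adjusted p = 4.60e-07) and 1.70 in wild-type neutrophils (SE 0.15, adjusted p = 8.51e-06). Irak2 changed least, by 0.38 in knockout (SE 0.11, adjusted p = 0.0328) and 0.45 in wild-type neutrophils (SE 0.11, adjusted p = 0.0233). Among the alternative-route genes 4 of 9 rose in each genotype (Birc3, Cd40, Tnfrsf1b and Traf3), beside the same shares, led by the receptor gene Cd40, at 10.2 ± 3.82 CPM with CpG and 0.57 ± 0.46 CPM unstimulated in knockout neutrophils (log2 4.11, SE 0.53, adjusted p = 0.000149). In wild-type neutrophils Cd40 stood at 7.10 ± 2.07 CPM with CpG and 0.49 ± 0.36 CPM unstimulated (log2 3.81, SE 0.54, adjusted p = 0.000518). The smallest called changes in that list were those of Tnfrsf1b in knockout (log2 1.197, SE 0.14, adjusted p = 4.98e-05) and Traf3 in wild-type neutrophils (log2 1.09, SE 0.13, adjusted p = 0.000139). Tnfrsf1b is a TNF receptor and Traf3 an adaptor that limits the alternative route.

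Genes of the feedback list, most of which encode deubiquitinases or their partners, rose in 4 of 6 cases in each genotype (Tnfaip3, Tnip1, Cyld and Usp18). This stands beside 7.57% of all tested genes in knockout and 4.74% in wild-type neutrophils. Tnfaip3 (A20) led in knockout (log2 2.99, SE 0.18, adjusted p = 1.38e-07) and in wild-type neutrophils (log2 2.78, SE 0.18, adjusted p = 4.95e-07), and Cyld changed least in knockout (log2 0.67, SE 0.11, adjusted p = 0.00141) and in wild-type neutrophils (log2 0.55, SE 0.11, adjusted p = 0.0101). Of the 7 genes of linear ubiquitin and IKK recruitment, 2 rose in knockout neutrophils, which were Cdc37 (log2 0.73, SE 0.10, adjusted p = 0.000282) and Rnf31 (log2 0.53, SE 0.14, adjusted p = 0.0286), and none in wild-type neutrophils. Cdc37 is a chaperone that binds the IKK kinases and Rnf31 a ligase that builds linear ubiquitin chains. Of the 10 partner and co-regulator genes, 1 rose in knockout neutrophils (Fbxw11, log2 0.49, SE 0.10, adjusted p = 0.00471) and none in wild-type neutrophils, a share near that of all tested genes. The genes called in knockout neutrophils alone had no interaction past the threshold.

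Between genotypes, 2 of the 54 genes passed in unstimulated cells, both lower in knockout. This is no larger a share than the 4.75% of all tested genes called there, so the values describe these genes and not the lists. Btrc, a subunit of the ligase that targets phosphorylated IκB, stood at 9.87 ± 1.93 CPM in knockout and 17.5 ± 1.03 CPM in wild-type neutrophils (log2 -0.82, SE 0.18, adjusted p = 0.0169). Commd1, which is known to limit Rela on chromatin, stood at 9.59 ± 0.56 CPM in knockout and 16.9 ± 1.88 CPM in wild-type neutrophils (log2 -0.82, SE 0.15, adjusted p = 0.00613). With CpG, 3 of the 54 genes passed, near the share of 3.92% of all tested genes. Btrc was lower in knockout (log2 -0.97, SE 0.18, adjusted p = 0.00589). Nfkbie was higher in knockout (log2 0.77, SE 0.18, adjusted p = 0.0256), as was Tnip1, an A20-binding inhibitor, at 1088 ± 243 CPM in knockout and 586 ± 18.1 CPM in wild-type neutrophils (log2 0.89, SE 0.15, adjusted p = 0.00235). The median log2 difference of the 54 genes with CpG was 0.20, and over all tested genes it was 0.00.

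The genes whose pattern was most like each of the 8 were taken as those with the smallest mean absolute difference in centred log2 CPM over the 12 libraries, among 7906 genes averaging 5 CPM or more. For Nfkb2 they were Nfkbia and Tnfaip3 (0.15 each), for Relb they were Tnf (0.17) and Mllt6 (0.17), and the distance between Nfkb2 and Relb themselves was 0.33. Nfkbia encodes IκBα and Tnf a cytokine. Tnf stood at 167 CPM with CpG and 16.2 CPM unstimulated in knockout neutrophils, against 134 and 19.8 CPM in wild-type neutrophils. Nfkb1 was nearest to Tgfb1 (0.07) and Cflar (0.08), Rel to Heatr6 (0.07) and Larp4b (0.08), and Rela to Crtc2 (0.06) and Nfkbid (0.07). Ikbkb was nearest to Aftph (0.04) and Srsf11 (0.05), Chuk to Cd53 (0.06) and Laptm4a (0.06), and Ikbkg to Cacul1 and Spg21 (0.11 each). These are descriptions over libraries that share the same 4 groups.

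Within groups, some libraries were high or low in CPM for most of the 8 genes. Knockout CpG library 2 had the highest CPM of its group for 7 of the 8 genes, where 33.0% of all tested genes were highest. Wild-type CpG library 2 was highest of its group for 6 of the 8, where 32.3% of all tested genes were highest. The unstimulated knockout library 3 had the lowest CPM of its group for 7 of the 8, where 44.5% of all tested genes were lowest. In TPM this did not hold. There the library was the highest of its group for Nfkb1 (66.9 TPM), Nfkb2 (41.8 TPM) and Relb (15.3 TPM), and the lowest for Chuk alone (15.8 TPM). Knockout CpG library 2 also had the lowest summed level of mature neutrophil markers of all 12 libraries, at 62229 CPM, against 99724 and 78123 CPM in libraries 1 and 3 of its group, and the Nfkb2 call between genotypes was lost without it. The part of this marker level in that call was not tested.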

How the data were processed

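The authors deposited RSEM estimated counts for each RefSeq transcript, together with TPM and FPKM values, per the file headers. The authors' TPM values are scaled for transcript length and sum to the same total in each library, and FPKM, deposited beside it, was not used here. The submitters' processing notes name Bowtie2 (version not stated), RSEM 1.2.28 and build GRCm39. Strandedness and lane pooling are not stated there.

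The counts were summed over the 54716 transcripts into 15986 genes and rounded, and 15883 genes matched a symbol. Gene names, promoter windows and transcript starts came from annotations of the earlier build GRCm38. Genes passing filterByExpr (smallest count 10, smallest total 15) numbered 10802. All 12 libraries entered a quasi-likelihood fit of the 4 group means (edgeR 4.0.16 under R 4.3.3) with TMM factors of 0.900 to 1.09 and 8 residual degrees of freedom. Benjamini-Hochberg adjustment covered all genes tested in a comparison. CPM used TMM-scaled library sizes. TPM was summed over a gene's transcripts and not tested. The fit was tested on simulated data.

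Same-numbered wild-type libraries deviated together (residual correlations 0.279, 0.408 and 0.437, each above 0.1), so blocked values stand beside wild-type results they change. Same-numbered knockout libraries correlated at 0.619, 0.085 and 0.678, of which 0.085 is below 0.1, and were not taken as paired. Differently numbered knockout libraries correlated at -0.637 to 0.03. Erythroid marker sums of knockout libraries 1, 2 and 3 also ran alike by number. They were 438, 1819 and 5960 CPM unstimulated and 521, 1653 and 6054 CPM with CpG. The knockout libraries may thus be paired by number. Alternatives were other scalings, DESeq2 1.42.0, other filters, only the libraries compared, replicate blocks and each library left out. Leaving out knockout libraries 1 or 3 together and counting curated transcripts only were chosen after seeing the data.

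Named genes were the 8 genes, Rab27a, S100a8, S100a9, Ly6g and Csf3r, the called genes with the largest and smallest change of each pathway list, and the 2 nearest profiles of each of the 8. Genes behind counts of 5 or fewer are also named, chosen after their values were seen. The 8 genes and the lists were chosen with earlier results of these data known. A comparison of protein sequences that had been planned was not analysed here.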

Additional observations from a re-analysis of the deposited data

How the results depend on the processing

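Estimated counts and 3 libraries a group limit what can be called. Genes called with genotype and number together as a replicate block, which also pairs the knockout libraries, numbered 2591 for CpG in knockout and 1824 for CpG in wild-type neutrophils, against 1257 and 652, and 13 against 0 for the interaction. Replicate number as a block called 3 of the 8 genes between genotypes with CpG (Nfkb2, Rela at adjusted p = 0.0396 and Ikbkg at adjusted p = 0.0200). That block treats same-numbered libraries of the 2 genotypes as matched, which the labels do not state. The blocks changed no other call of the 8 genes beyond Ikbkg in wild-type neutrophils. DESeq2 called 782 genes between genotypes unstimulated and 734 with CpG, including 3 of the 8, and 3 for the interaction. Library size alone called 2 of the 8 between genotypes with CpG, and a fit of only the libraries compared called 0 of the 8 and 253 genes there. Without both knockout libraries numbered 1, 341 genes and 0 of the 8 were called unstimulated. Without both numbered 3, 0 of the 8 were called unstimulated, and 824 genes and 2 of the 8 with CpG. Curated transcripts only gave 425 genes for CpG in wild-type neutrophils, 283 genes and 0 of the 8 between genotypes unstimulated, and 227 genes with CpG. Under it Relb in unstimulated cells reversed to 0.0152. Leaving out single libraries gave 818 to 1347 genes for CpG in knockout neutrophils, 425 to 758 in wild-type neutrophils, 278 to 604 (0 to 1 of the 8) between genotypes unstimulated, and 234 to 699 (0 to 2 of the 8) with CpG. Wild-type Rela was also lost with library size alone (adjusted p = 0.0501), relative log expression factors (adjusted p = 0.0525) and without both knockout libraries numbered 1 (adjusted p = 0.0591). Beyond these counts the cause was not tested.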
